A study of Mus musculus with 6 samples.

Results

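Interferon receptor chains, Janus kinases (JAKs) and STAT transcription factors were measured after radiotherapy and without it in SCC7, a line of mouse squamous carcinoma cells. The 9 genes were chosen by symbol, as the rows of the deposited table named Ifnar1, Ifnar2, Ifngr1, Ifngr2, Jak1, Jak2, Tyk2, Stat2 and Stat3, and all 9 were found among the 17030 genes measured. The irradiated group held 3 samples of SCC7 cells that had received 9 Gy, and the control group held 3 samples of the same line labelled as untreated. Both groups were cultured in high-glucose medium with serum, and all 6 samples carry the label day 0, so the time between irradiation and harvest is not given. The labels name no separate cultures, so each p-value rests on sample-to-sample spread that could be purely technical. Values are FPKM, fragments scaled by transcript length and by library total. FPKM allows genes to be compared per length, but very abundant genes can move the values of all others. In bulk RNA, fewer cells with a transcript and less RNA per cell cannot be told apart.

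Interferons act through paired receptor chains that carry Janus kinases on their inner side. Type I interferons bind IFNAR1 and IFNAR2, which use TYK2 and JAK1, and interferon gamma binds IFNGR1 and IFNGR2, which use JAK1 and JAK2. The activated kinases phosphorylate STAT proteins. STAT2 joins another STAT and IRF9 in the complex ISGF3, which binds the interferon-stimulated response element (ISRE), while STAT dimers bind the gamma-activated site (GAS). STAT3 is used mainly by receptors of the interleukin-6 family that contain gp130.

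The promoter of Stat2 is shown because Stat2 was the gene of the 9 that passed the test, and that of Ifnar2 because its receptor chain had the highest level. Both are the 250 bases before the start site in RefSeq (GRCm38.p6, plus strand), written 5′ to 3′. Capitals mark letters that match GAAANNGAAA (an ISRE-like motif, here on the other strand) in Stat2 and TTCNNNGAA (a GAS-like motif) in Ifnar2.
Stat2, chr10:128270248-128270497: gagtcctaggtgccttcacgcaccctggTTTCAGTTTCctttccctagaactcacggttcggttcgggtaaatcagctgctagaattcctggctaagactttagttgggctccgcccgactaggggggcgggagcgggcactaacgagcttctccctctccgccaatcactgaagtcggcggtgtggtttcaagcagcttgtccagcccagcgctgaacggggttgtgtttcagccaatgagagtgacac
Ifnar2, chr16:91372533-91372782: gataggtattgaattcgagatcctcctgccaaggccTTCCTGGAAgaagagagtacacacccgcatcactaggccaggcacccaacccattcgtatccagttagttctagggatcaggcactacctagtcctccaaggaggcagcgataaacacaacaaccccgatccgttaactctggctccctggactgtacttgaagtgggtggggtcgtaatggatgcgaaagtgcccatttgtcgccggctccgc

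Each RefSeq window searched ran from 250 bases before to 50 bases after a start site, on both strands, and every one of the 9 genes had 1 window in the table. The ISRE-like letters occurred in the window of Stat2, at base -222 from the start site, and in no other of the 9 windows. The GAS-like letters, which read the same on both strands, occurred once in Ifnar2, at base -214, and once in Ifnar1, across the start site from base -5. Over all 32851 windows of the table, 3.44% held the ISRE-like letters and 8.3% the GAS-like letters. The 2 motifs share no match in these windows. A match is a description of the letters, not a site of binding.

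The 3 irradiated libraries resembled one another closely, with Pearson r across genes of at least 0.994, while the controls ranged from 0.928 to 0.989. Per gene, the SD of log2(FPKM + 1) had a median of 0.08 in the irradiated and 0.30 in the control group, and control 3 stood apart from controls 1 and 2. FPKM sums were 652691 to 663489 in irradiated libraries and 693961 to 982553 in controls. Among epithelial markers, Krt8 was at 371.16 to 392.77 FPKM in irradiated and 486.7 to 1361.49 FPKM in control libraries (log2 fold change -1.29, limma adjusted p = 0.0686), and Krt18 at 100.26 to 112.51 FPKM in irradiated and 211.5 to 528.15 FPKM in control libraries (-1.82, limma adjusted p = 0.0261). Of 5 mesenchymal markers tested, 1 was called, where 12% of all genes tested were. It was the collagen gene Col1a1, which rose by 1.23 (limma adjusted p = 0.00474). Vim and Pdgfrb had log2 fold changes of -0.67 and -0.18, and Col1a2 and Pdgfra of 0.05 and 0.17. The median of the 5 was 0.05. The 6 mesenchymal markers measured summed to 2619 to 2792 FPKM in irradiated and 2621 to 5420 FPKM in control libraries. The part of these markers in the results was not tested. Krt5, Krt14, Epcam, Cdh1 and Trp63, which define squamous epithelium or epithelium at large, lay between 0.08 and 0.38 FPKM in irradiated and between 0 and 1.1 FPKM in control libraries. These 5 markers were thus at or near 0 in a line labelled squamous. The leukocyte genes Ptprc, Itgam and Adgre1 were at most 0.06 FPKM in irradiated and 0.02 FPKM in control libraries.

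Radiotherapy was compared with no treatment to ask which parts of the interferon signalling chain differed at the RNA level. Stat2 was about 8-fold higher in irradiated cells and passed the test (limma on log2(FPKM + 1), Benjamini-Hochberg adjusted over 11103 genes, threshold 0.05). No other member passed it with all 6 libraries. Jak2, Tyk2 and Ifngr2 had adjusted p-values just above the threshold, with every irradiated library above every control. Ifngr1, Jak1 and Stat3 overlapped between the groups, and in each of them control 3 lay above all irradiated libraries. Thus 1 of 9 members was called higher and 0 lower, where 9.24% of all genes tested were called higher and 2.77% lower (12% in all). The share of members called is near this background. At an unadjusted p below 0.05, 5 of the 9 members passed, as did 38.3% of all genes tested. The median log2 fold change of the 9 was 0.55, against 0.17 for all genes tested.

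**Figure D1:**
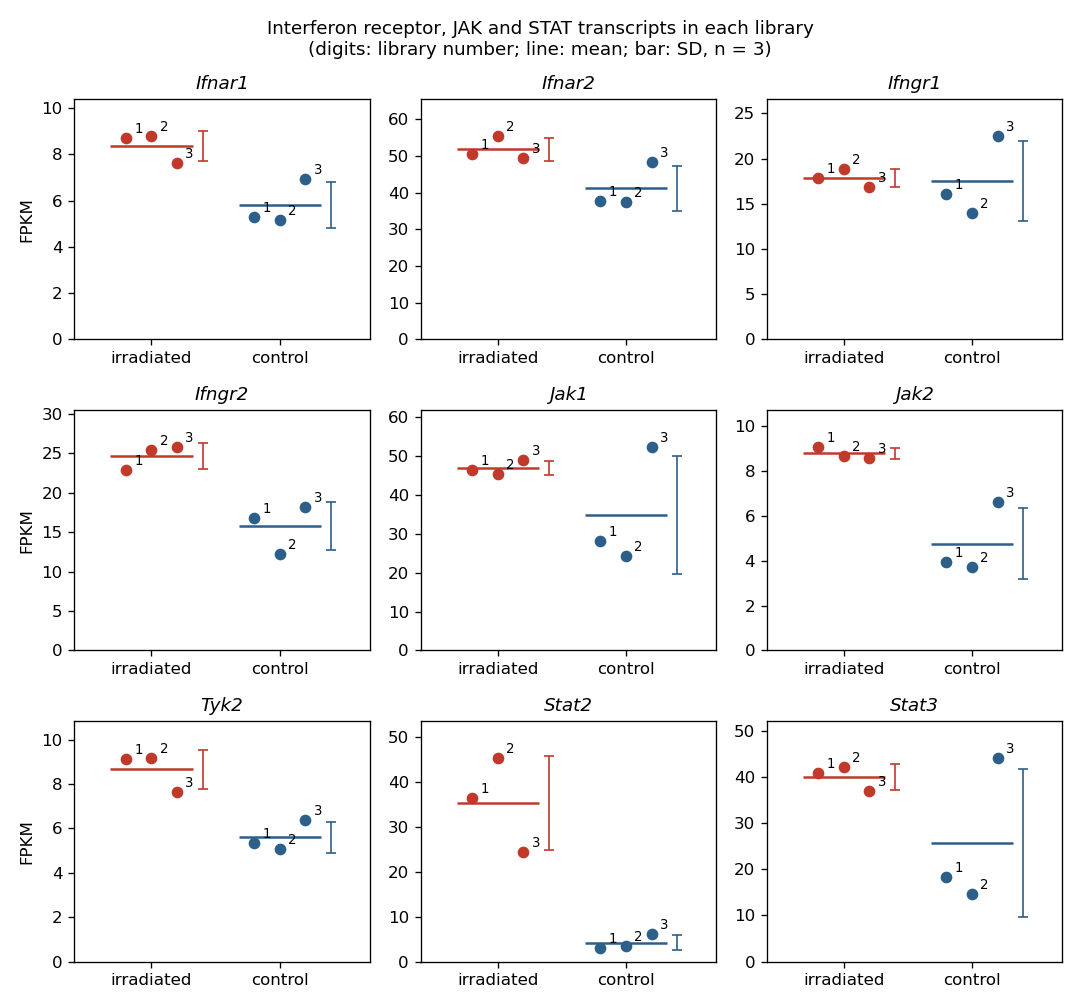
FPKM of the 9 genes in each library, with irradiated samples on the left and controls on the right of each panel. Points are libraries with their number, lines are means and bars are SD (n = 3). Stat2 is at 24.46 to 45.32 FPKM in irradiated and 3.11 to 6.11 FPKM in control libraries, and control 3 is the highest control in every panel.

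Among the STATs, Stat2 (NCBI gene 20847, chromosome 10, 128270498 to 128292853, plus strand), the subunit that gives ISGF3 its transactivating domain, measured 36.37, 45.32 and 24.46 FPKM in irradiated libraries 1 to 3 and 3.11, 3.48 and 6.11 FPKM in controls 1 to 3. The lowest irradiated library was thus well above the highest control. The means were 35.4 ± 10.5 FPKM in irradiated and 4.23 ± 1.64 FPKM in control cells (SD, n = 3 each), a ratio of 8.36. The log2 fold change was 2.80 (SE 0.29, 95% interval 2.10 to 3.50, limma adjusted p = 0.00398), which ranked 54 of 11103 genes from the highest down. It was 3.04 without control 3 and 2.31 with control 3 as the only control. The call was lost without irradiated library 1 (2.76, limma adjusted p = 0.0501), where the fit called only 0.516% of all genes. The RefSeq record of Apof overlaps the first 753 bases of Stat2, but Apof averaged 0.23 FPKM in irradiated and 0.02 FPKM in control cells.

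Stat3 (NCBI gene 20848, chromosome 11, 100886806 to 100939594, minus strand), the factor activated by gp130 receptors, measured 41, 42.22 and 36.99 FPKM in irradiated libraries and 18.25, 14.7 and 44.2 FPKM in controls. Controls 1 and 2 lay far below the irradiated values, whereas control 3 exceeded all of them. Stat3 had a log2 fold change of 0.78 with a wide interval (-0.12 to 1.68, limma adjusted p = 0.171). It was 1.24 without control 3, with an adjusted p of 9.4e-05 by limma, and -0.14 with control 3 as the only control. The direction of Stat3 depended on the control used.

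Among the kinases, Jak2 (NCBI gene 16452, chromosome 19, 29251803 to 29313095, plus strand), which serves the interferon gamma receptor and many growth factor receptors, measured 9.05, 8.67 and 8.57 FPKM in irradiated libraries and 3.94, 3.73 and 6.6 FPKM in controls. The groups did not overlap. Jak2 had the second largest log2 fold change of the 9, 0.80 (SE 0.21, 95% interval 0.31 to 1.29), with a limma adjusted p of 0.0513. It was called by limma without the trend and robust options, with 1 weight per group, without control 3 (1.01), and with control 3 as the only control (0.36), a choice that took its spread from the irradiated libraries. Under the other 11 alternatives it was not called, with limma adjusted p-values up to 0.214, and quantile normalization gave 0.42.

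Tyk2 (NCBI gene 54721, chromosome 9, 21104068 to 21131393, minus strand), the kinase bound to IFNAR1, measured 9.13, 9.17 and 7.66 FPKM in irradiated libraries and 5.36, 5.05 and 6.38 FPKM in controls. All irradiated values were above all control values. Tyk2 had a log2 fold change of 0.55 (SE 0.15, 95% interval 0.20 to 0.90, limma adjusted p = 0.0533). After quantile normalization it was 0.18 and after trimmed-mean scaling 0.34.

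Jak1 (NCBI gene 16451, chromosome 4, 101151974 to 101265282, minus strand), the kinase shared by both interferon receptors, measured 46.47, 45.26 and 48.99 FPKM in irradiated libraries and 28.18, 24.21 and 52.34 FPKM in controls. Control 3 was the highest of the 6 libraries. For Jak1 the log2 fold change was 0.49 (95% interval -0.16 to 1.15, limma adjusted p = 0.219), 0.82 without control 3 and -0.16 with control 3 as the only control. Jak1 stood well above its partner kinases in every library.

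Of the type I receptor chains, Ifnar1 (NCBI gene 15975, chromosome 16, 91485032 to 91510523, plus strand) measured 8.68, 8.79 and 7.61 FPKM in irradiated libraries and 5.28, 5.17 and 6.95 FPKM in controls. The groups were apart by a small margin. Ifnar1 had a log2 fold change of 0.47 (SE 0.15, 95% interval 0.10 to 0.84, limma adjusted p = 0.0806), and 0.10 after quantile normalization.

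Ifnar2 (NCBI gene 15976, chromosome 16, 91372783 to 91405589, plus strand), the chain that binds type I interferon with high affinity, measured 50.56, 55.42 and 49.49 FPKM in irradiated libraries and 37.68, 37.35 and 48.29 FPKM in controls. Control 3 came just below the lowest irradiated library. Ifnar2 had a log2 fold change of 0.34 (SE 0.14, 95% interval -0.01 to 0.68, limma adjusted p = 0.135), and it was 0.10 after trimmed-mean scaling and also with control 3 as the only control. The lncRNA record Gm36587 overlaps the first 6540 bases of Ifnar2, and the labels do not say whether counting used the strand.

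For interferon gamma, the signalling chain Ifngr2 (NCBI gene 15980, chromosome 16, 91547059 to 91564007, plus strand) measured 22.84, 25.43 and 25.82 FPKM in irradiated libraries and 16.8, 12.3 and 18.17 FPKM in controls. The groups did not overlap. Its log2 fold change was 0.63 (SE 0.17, 95% interval 0.23 to 1.04, limma adjusted p = 0.0544), and no alternative moved it below 0.40.

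The ligand-binding chain Ifngr1 (NCBI gene 15979, chromosome 10, 19591949 to 19610229, plus strand) measured 17.84, 18.84 and 16.88 FPKM in irradiated libraries and 16.13, 13.98 and 22.5 FPKM in controls. The irradiated values lay inside the range of the controls. The log2 fold change was 0.05 (95% interval -0.40 to 0.49, limma adjusted p = 0.855), the smallest of the 9, and its sign turned under 4 alternatives, down to -0.32 with control 3 as the only control.

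**Figure D2:**
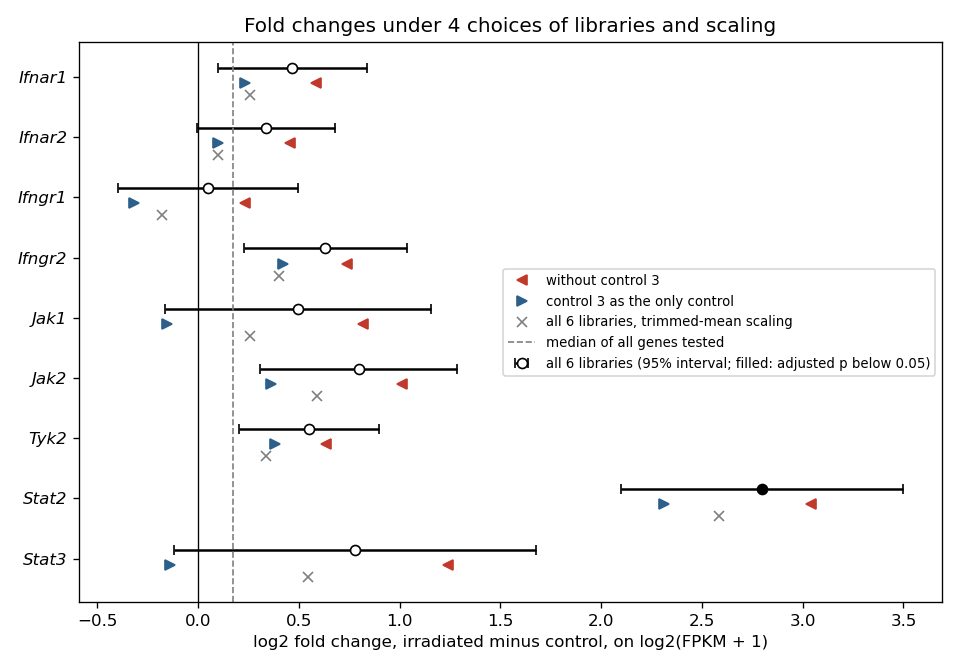
Log2 fold change (irradiated minus control, on log2(FPKM + 1)) of each gene with its 95% interval from all 6 libraries, and the values without control 3, with control 3 as the only control, and after trimmed-mean scaling. The interval of Stat2 from all 6 libraries, 2.10 to 3.50, lies apart from zero. The other choices are shown without intervals, and for Stat2 they lie at 2.31 to 3.04. Ifngr1, Jak1 and Stat3 are below zero with control 3 as the only control.

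Control 3 set much of the spread. It was the highest control in each of the 9 genes, as it was in 52.8% of all genes tested. In 3 of the 9 (Ifngr1, Jak1 and Stat3) it also reached at least the lowest irradiated library, against 29.2% of all genes. In 6 of the 9 it lay nearer to the irradiated mean than to the mean of controls 1 and 2, where 69.4% of all genes tested did so. Without control 3, limma called 8 of 9 members higher, all but Ifngr1, but it then called 69.1% of all genes tested. With control 3 as the only control, 4 members were called higher (Ifngr2, Jak2, Tyk2 and Stat2) and Ifngr1 lower, where 37.2% of all genes were called. The irradiated libraries stood above all controls in 6 of the 9 genes, against 31.8% of all genes tested, and below them in 0 of the 9, against 13.7% (45.4% in either direction). Stat2 was the 1 member called after quantile normalization, where 11.1% of all genes were called, after trimmed-mean scaling (10.8%), without the filter (7.86%), with the filter at 5 FPKM (8.18%), with a pseudocount of 0.1 (9.46%) and with the sample number as a block (2.7%). It was also the 1 member called without control 1 (1.63%) or 2 (4.96%), and without irradiated library 2 (0.599%) or 3 (0.911%). Scaling also mattered for the smaller differences, since the all-gene median of 0.17 became -0.01 after quantile normalization and -0.04 after trimmed-mean scaling. With the values as deposited, 1026 genes were called higher and 308 lower. Quantile normalization gave 663 higher and 564 lower calls, and trimmed-mean scaling 617 and 586. The median of the 9 was 0.42 and 0.34 after these scalings.

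The order of the levels differed in 1 place above all. Ifnar2 was the most abundant of the 9 in both groups, at 51.8 ± 3.16 FPKM in irradiated and 41.1 ± 6.22 FPKM in control cells (SD, n = 3 each), followed by Jak1 and Stat3. Stat2 ranked 4 of 9 in irradiated cells and 9 of 9 in controls. In irradiated cells the ranges of Stat3 and Stat2 overlapped, as did those of Stat2 and Ifngr2, and those of Jak2, Tyk2 and Ifnar1 at the low end. In controls the ranges of Ifnar2, Jak1 and Stat3, of Stat3, Ifngr1 and Ifngr2, and of Ifnar1, Tyk2, Jak2 and Stat2 overlapped between neighbours, and only the step between Ifngr2 and Ifnar1 was free of overlap. Ifnar1 was thus the scarcer chain of the type I receptor in both groups.

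Ratios between members within a library do not depend on its scaling. The ratio of Stat2 to Stat3 was 0.887, 1.07 and 0.661 in irradiated libraries and 0.17, 0.237 and 0.138 in controls, a log2 difference of 2.27. Stat2 was thus between 0.661 and 1.07 times the level of Stat3 in irradiated libraries, and at most 0.237 times in controls. The ratio of Ifngr1 to Ifngr2 was 0.781, 0.741 and 0.654 in irradiated libraries and 0.96, 1.14 and 1.24 in controls, a log2 difference of -0.61, so that the signalling chain was the more abundant one in every irradiated library. The ratio of Ifnar2 to Ifnar1 was 5.82, 6.30 and 6.50 in irradiated libraries and 7.14, 7.22 and 6.95 in controls (log2 difference -0.19). The ratio of Jak2 to Jak1 was 0.195, 0.192 and 0.175 in irradiated libraries and 0.14, 0.154 and 0.126 in controls (log2 difference 0.42). For these 4 ratios the groups did not overlap, which gives p = 0.1 in the two-sided exact permutation test, the smallest that 3 against 3 allows, and 0.125 after Benjamini-Hochberg adjustment over the 5 ratios. The ratio of Tyk2 to Jak1 overlapped (log2 difference 0.12, exact permutation p = 0.7).

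**Figure D3:**
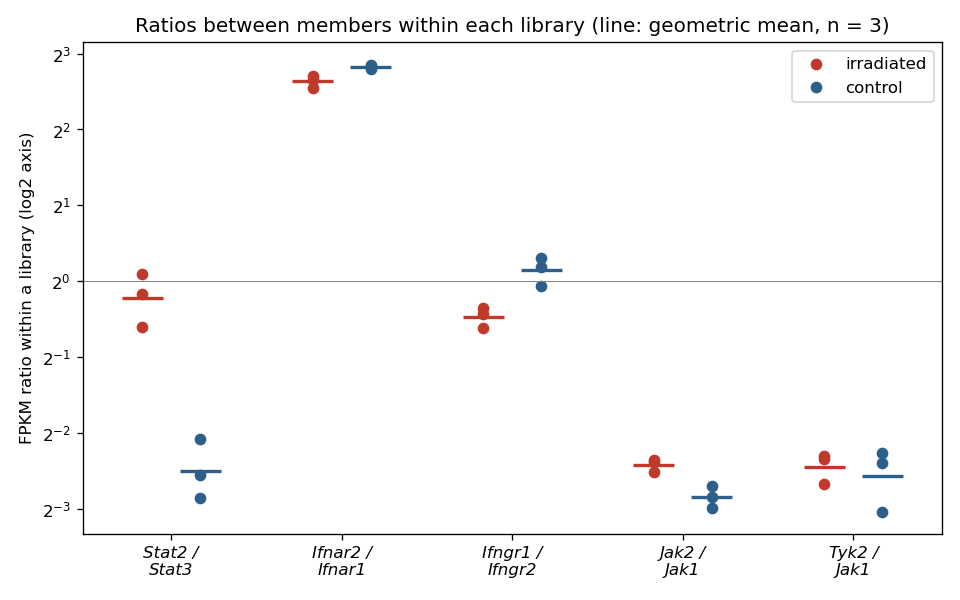
Ratio of the FPKM of a pair of genes within each library, on a log2 axis, with irradiated libraries on the left of each pair of columns and controls on the right. Points are libraries and lines geometric means (n = 3). Stat2 to Stat3 is at 0.661 to 1.07 in irradiated and 0.138 to 0.237 in control libraries, and Tyk2 to Jak1 is the ratio whose groups overlap.

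Stat2 also varied more than its partners among irradiated libraries, with a SD of 0.44 on the log2(FPKM + 1) scale, above that of 99.2% of all genes tested. The other 8 members had SDs of 0.04 to 0.13. Stat2 was highest in irradiated library 2 and lowest in library 3, and 5 of the other 8 members shared that ranking of the 3 libraries, as did 19.4% of all genes tested. Among genes induced through ISGF3, 21 of 23 shared it, and among genes induced by interferon gamma, 13 of 14. These lists include 6 and 4 genes that were below 1 FPKM in every control and passed the filter through irradiated libraries alone. Further genes of both lists were below 1 FPKM in at least 1 control and also needed irradiated libraries to pass. These counts were made after the values of Stat2 had been seen. The SD of the ISGF3 genes among irradiated libraries had a median of 0.40.

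**Figure D4:**
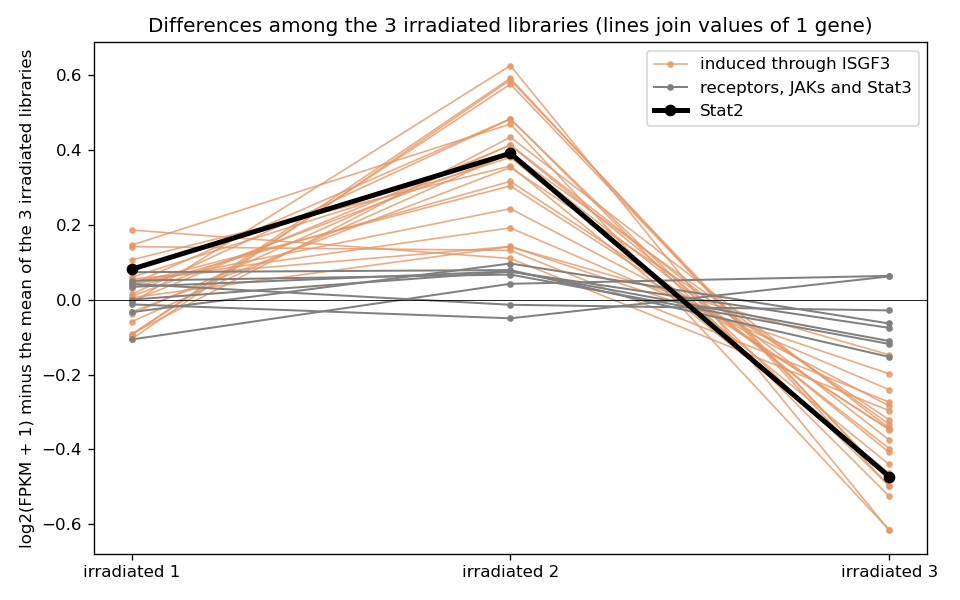
Difference of each irradiated library from the mean of the 3, on log2(FPKM + 1), for Stat2, the other 8 members and 23 genes induced through ISGF3. Lines join the values of 1 gene, and the libraries have no order. Stat2 has the ranking of libraries found in 21 of the 23 ISGF3 genes, while the receptors, kinases and Stat3 stay close to zero. Of the 23, 6 were below 1 FPKM in every control.

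Other parts of the pathway are given by lists of known genes. No ligand reached the filter of at least 1 FPKM in at least 3 samples. Ifnb1, which encodes interferon beta, was listed at 0.51, 0.26 and 0 FPKM in irradiated libraries and at 0 in all controls. Ifnk and Ifnl2 each had a single value above 0, and the other 9 ligands of the list had no row in the table. For the 3 ligands with a row, the RNA level was thus at or near the limit of what these values show. For the other 9, a missing row gives no level.

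The ISGF3 partner Irf9, the DNA-binding subunit, measured 28.47, 28.27 and 21.1 FPKM in irradiated libraries and 2.32, 2.59 and 2.86 FPKM in controls. It rose by 2.90 (SE 0.16, limma adjusted p = 0.000526), close to the 2.80 of Stat2, and its call held under every alternative run. Of 23 genes induced through ISGF3 and tested, 6 were below 1 FPKM in every control and so passed the filter through irradiated cells alone. Of the other 17, 16 rose, where 9.24% of all genes tested were called higher. The median log2 fold change of the 17 was 3.75. Among the 17, Ifit1, Ifit3, Oasl2, Rtp4, Ifih1, Zbp1 and Xaf1 were below 1 FPKM in at least 1 control. These genes also needed irradiated libraries to reach the filter, so the values of the 17 are not free of that selection. Of 14 genes induced by interferon gamma and tested, 4 were likewise below 1 FPKM in every control. Of the other 10, 10 rose, against the same 9.24% of all genes tested, with a median of 2.50. Gbp4, Igtp and Irgm2 among the 10 were below 1 FPKM in at least 1 control and also needed irradiated libraries to pass. The smallest p in each list belonged to a gene that was below 1 FPKM in every control, Oas2, an antiviral nucleotide synthetase (4.99), and Gbp3, a guanylate-binding protein (4.98), so these are given as values only. The myeloid marker Lyz2 was also below 1 FPKM in every control and passed the filter through irradiated cells alone. It is given as values only, at 2.37, 3.53 and 3.36 FPKM in irradiated libraries and 0.52, 0.3 and 0.78 FPKM in controls. The other leukocyte marker tested, Cd68, overlapped between the groups and was not called (log2 fold change 0.48, limma adjusted p = 0.183). Cd79a, which did not reach the filter, averaged 0.67 FPKM in irradiated and 0.76 FPKM in control cells. The 6 leukocyte markers measured summed to 8.09 to 9.78 FPKM in irradiated and 3.39 to 5.86 FPKM in control libraries, with the defining Ptprc at or near 0. Without irradiated library 1, 2 or 3, the ISGF3 genes called were 14, 14 and 16 of only 17 that passed the filter, and the interferon gamma genes 3, 3 and 6 of 10. Of all genes tested, these settings called 0.516%, 0.599% and 0.911%. Without control 1 the interferon gamma genes called were 8 of 14, where 1.63% of all genes were called.

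**Figure D5:**
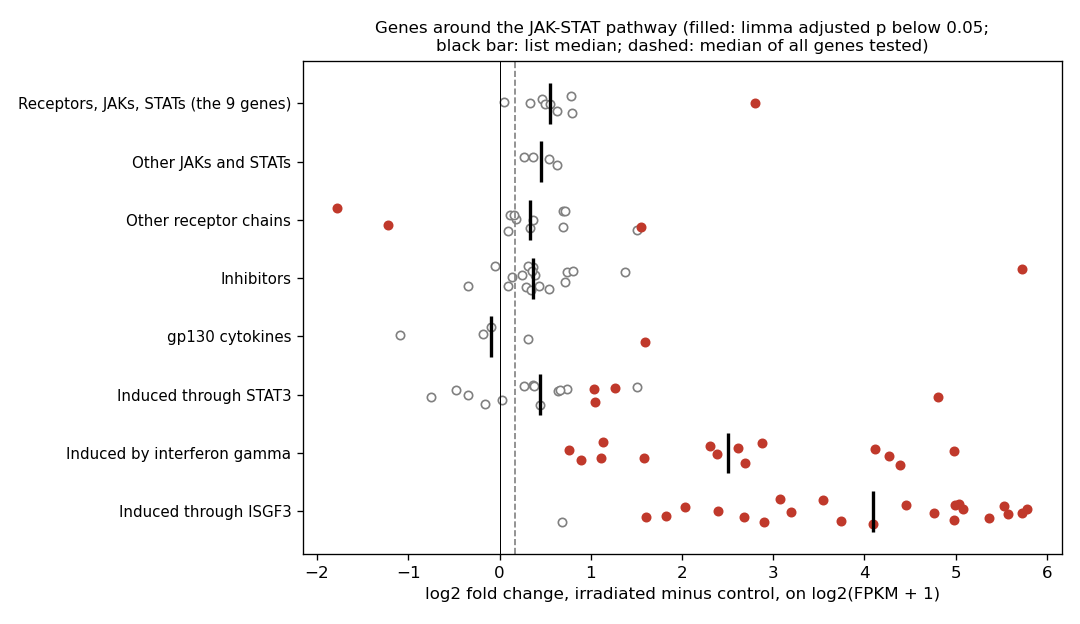
Log2 fold change (irradiated minus control, on log2(FPKM + 1)) of every tested gene in 8 lists around the pathway. Each point is a gene, filled where the limma adjusted p is below 0.05, and black bars are list medians. The 9 receptors, kinases and STATs have a median of 0.55 with Stat2 at 2.80, and the interferon-induced lists have medians of 2.50 and 4.10 over all their tested genes, those below 1 FPKM in every control included.

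Of the remaining Janus kinase Jak3 and the STATs Stat5a, Stat5b and Stat6, 0 of 4 passed the limma test over all genes, with log2 fold changes of 0.27 to 0.63. At an unadjusted p below 0.05, 2 of the 4 passed (Stat5a and Stat5b), where 38.3% of all genes did. Stat5a and Stat5b, which lie next to Stat3 on chromosome 11, had log2 fold changes of 0.63 and 0.54, with every irradiated library above every control. Stat4, a STAT of lymphocytes, did not reach the filter. Without control 3 all 4 were called, in the setting that called 69.1% of all genes.

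Among 13 other receptor chains that signal through Janus kinases, 1 rose (Il15ra) and 2 fell (Il11ra1 and Il2rg). Of all genes tested, 9.24% were called higher and 2.77% lower. Il15ra, which presents interleukin-15, measured 5.19, 7.22 and 4.81 FPKM in irradiated libraries and 0.93, 1 and 2.08 FPKM in controls (log2 fold change 1.55, limma adjusted p = 0.0139). Il11ra1, the interleukin-11 receptor, measured 14.48, 13.8 and 14.79 FPKM in irradiated libraries and 32.23, 41.44 and 31.92 FPKM in controls (-1.23, limma adjusted p = 0.0052). Il2rg, the common gamma chain that pairs with JAK3, fell by 1.78 on the log2 scale (limma adjusted p = 0.0211). Without irradiated library 1, 2 or 3, the limma adjusted p was 0.107, 0.119 and 0.0861 for Il15ra and 0.0699, 0.0734 and 0.0575 for Il11ra1, so these calls were lost. That of Il2rg was lost without irradiated library 1 or 2 (0.139 and 0.157) or control 1 or 2 (0.112 and 0.0554), with 1 weight per group (0.0975) and with control 3 as the only control (0.0887), and that of Il15ra without control 1 (0.0831). The next 3 chains were chosen after their values had been seen. Il6st, which encodes gp130, measured 26.96, 24.07 and 26.51 FPKM in irradiated libraries and 11.54, 10.36 and 31.01 FPKM in controls, and Osmr, the oncostatin M receptor, measured 6.62, 7.02 and 5.61 FPKM in irradiated libraries and 0.6, 0.44 and 6.69 FPKM in controls. In both, control 3 was far above controls 1 and 2, as for Stat3. Without control 3, 7 of the 13 chains were called higher and 2 lower, and with control 3 as the only control 3 higher and 1 lower, in settings that called 69.1% and 37.2% of all genes. Il10rb, whose gene lies between Ifnar2 and Ifnar1 on chromosome 16, had a log2 fold change of 0.34 (limma adjusted p = 0.274).

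Of 18 inhibitors of the pathway tested, 1 rose, where 9.24% of all genes did. Every irradiated library was above every control in 12 of the 18, against 31.8% of all genes. The one that rose was Usp18, which binds IFNAR2 and blocks its signalling and is also in the ISGF3 list, and 0 fell. Usp18 passed the filter through the irradiated libraries alone, and on leaving out any of them it was not tested. It is thus given as values only, at 61.07, 84.87 and 42.55 FPKM in irradiated libraries and 0, 0.12 and 0.4 FPKM in controls (log2 fold change 5.73). Of the other 17 inhibitors, 0 rose, with a median log2 fold change of 0.35. Socs1, which blocks JAK1, JAK2 and TYK2, measured 29.62, 33.3 and 31.41 FPKM in irradiated libraries, inside the range of the controls at 48.38, 35.36 and 14.75 FPKM. Socs3, the inhibitor bound to gp130, measured 25.98, 24.28 and 19.66 FPKM in irradiated libraries and 13.3, 8.02 and 22.28 FPKM in controls (0.74, limma adjusted p = 0.149). Without control 3, 13 of the 18 were called higher and 1 lower, and with control 3 as the only control 4 higher and 1 lower, against the same 69.1% and 37.2% of all genes.

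Of 17 genes induced through STAT3 and tested, 4 rose and 0 fell, where 9.24% of all genes tested were called higher and 2.77% lower. The median log2 fold change of the 17 was 0.44, against 0.17 for all genes tested. Without the 1 gene that was below 1 FPKM in every control, 3 of 16 rose, with a median of 0.41. The smallest p of the list belonged to Lcn2, which encodes lipocalin-2. It was below 1 FPKM in every control and passed the filter through irradiated cells alone, so it is given as values only. Lcn2 measured 28.67, 39.22 and 30.22 FPKM in irradiated libraries and 0.4, 0.1 and 0.11 FPKM in controls (log2 fold change 4.80). The acute-phase gene Saa3 and the transcription factors Bcl3 and Junb rose by 1.26, 1.03 and 1.04, and were named after their values had been seen. Saa3 missed the threshold after quantile normalization (limma adjusted p = 0.0796) and with 1 weight per group (0.0612), and Bcl3 without the filter (limma adjusted p = 0.0559). Without irradiated library 1, 2 or 3, the genes called in this list were 0 of 16, and without control 1, 2 or 3 they were 1, 3 and 11 higher, with 3 lower in the last setting, which called 69.1% of all genes. Of 5 gp130 cytokines tested, 1 rose and 0 fell, against the same 9.24% and 2.77% of all genes tested. The one that rose was Lif, leukemia inhibitory factor. It measured 10.58, 10.89 and 8.91 FPKM in irradiated libraries and 1.97, 1.7 and 5.17 FPKM in controls (1.60, limma adjusted p = 0.0313). The Lif call was lost without control 1 or 2 (limma adjusted p = 0.136 and 0.0675) and without irradiated library 1, 2 or 3 (0.176, 0.188 and 0.145). Lcn2, like Oas2 and Gbp3, did not reach the filter once an irradiated library was left out.

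The genes most like each member were taken by Pearson r over the 6 libraries on log2(FPKM + 1), from genes tested with a mean of at least 5 FPKM. For Stat2 they were Tapbp, Pdxk and Gbp2b (r = 0.999 each). Those of Stat3 were Arnt, Plekha5 and Gpalpp1, those of Jak1 Alg10b, Dlg1 and Nup188, and those of Jak2 Kidins220, Wnk1 and Parp4, with r from 0.998 to 1.000. For Tyk2 the list held Csnk1d, Gna13 and Ip6k2, for Ifnar1 Ap4e1, Camkmt and Dnm2, and for Ifnar2 Rexo1, Tmem120b and Amn1. Ifngr2 was most like Tmem181a, Phospho2 and Arl8a, and Ifngr1 most like Stx2, Syde1 and Acadm (r = 0.994, 0.993 and 0.992). Such values are common with 6 libraries in 2 groups, since 153 genes for Ifngr1 and up to 1192 for Stat3 exceeded an r of 0.95, and they describe these libraries only.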

How the data were processed

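RNA of 6 SCC7 samples was measured by sequencing after ribosomal RNA removal, per the labels' protocols. The deposited values are FPKM by the authors, per the file headers, rounded to 2 decimals. HISAT and the build GRCm38.p6 are named in the submitters' processing notes. For the counting tool, annotation and filters the sources used here give nothing. Whether low values move in steps of whole reads was not tested. Sequencing depth is thus unknown here, and counting error was not estimated.

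The test used limma 3.58.1 (R 4.3.3) on log2(FPKM + 1) for the 11103 genes that reached 1 FPKM in 3 or more samples (2 groups, no covariate, eBayes with trend and robust options, Benjamini-Hochberg). All 9 members passed this filter, each with more than 1 FPKM in every library. Fold changes understate low genes. The fit assumes equal variance in both groups, so its p-values are approximate. It was tested on simulated data. Members, lists, tests and alternatives were chosen with earlier results of these data known. The text names all members, the 3 genes most like each, and the called list genes with the smallest p in each direction, with Irf9, Usp18, Socs1 and Socs3. Other list genes were chosen after their values were seen. Gene coordinates and promoters came from RefSeq tables of GRCm38.p6, which held all 9 members.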

Additional observations from a re-analysis of the deposited data

How the results depend on the processing

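Stat2 kept its direction under all 15 alternatives run (log2 fold change 2.31 to 3.05) and its call under 14 of them, with limma adjusted p-values up to 0.0501. Against 1334 genes called with all libraries, limma called 727 with the filter at 5 FPKM and 4093 with control 3 as the only control, and 56 to 7638 when 1 library was left out, the last without control 3. Against 1 member called, 3 were called without the trend and robust options (where 13.8% of all genes were called), 2 with 1 weight per group (16.4%, chosen after seeing the data), 5 with control 3 as the only control, and 0 to 8 when 1 library was left out. Weights per sample were not run, since their estimate did not converge. Ifngr1 turned to -0.14 after quantile normalization, -0.18 after trimmed-mean scaling and -0.32 with control 3 as the only control, and ranged from -0.091 (without control 2) to 0.23 (without control 3) when 1 library was left out. With control 3 as the only control, Jak1 and Stat3 turned to -0.16 and -0.14. When 1 library was left out, the log2 ratio of Tyk2 to Jak1 ranged from -0.11 (without control 3) to 0.27 (without control 2), and it was 0.59 with control 3 as the only control. The cause was not tested. The other 4 ratios kept their direction in all 8 alternatives each.

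With the sample number as a replicate block, 300 genes and 1 member (Stat2) were called. Il2rg, Lif, Bcl3 and Junb were not called with the block (limma adjusted p = 0.0616, 0.0685, 0.0817 and 0.075), nor were 3 genes of the interferon gamma list (Irf1, Psmb8 and Psmb9). The deviations of same-numbered libraries correlated at -0.11, 0.02 and -0.16, and those of different-numbered libraries at -0.17 to 0.26. These values show no pairing by number, but with 3 libraries a group they cannot exclude one. With 3 samples a group and unknown depth, differences of the size seen in Ifnar2 or Jak1 could not be told from the spread of the controls.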
